A study of Mus musculus with 2 samples.

Results

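Zdbf2 and Adam23 are neighbouring genes on mouse chromosome 1. They are the 2 members described here, of 37310 genes in the GENCODE vM1 annotation, of which 15427 held at least 100 reads in each library. Zdbf2 was taken at its entry in the deposited catalog of imprinted genes, chr1:63319843-63361149 in build mm9. Adam23 was taken at the interval listed for it among the candidate imprinted genes of the study. That interval is chr1:63492477-63643089 in the same build. Their Ensembl identifiers are ENSMUSG00000027520.8 and ENSMUSG00000025964.7. Both lie on the forward strand, Zdbf2 upstream of Adam23, with 131.327 kb between them.

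The data are RNA-Seq libraries of polyadenylated RNA from whole brains of F1 hybrid mouse embryos at E17.5, with 1 library per cross. The BxC embryo had a C57BL/6J mother and a CastEi/J father, and the CxB embryo had the reverse parents. BxC held 128944754 aligned reads and CxB 109719746. Reads with the same alignment were taken to share 1 line of the deposited alignments, so distinct lines were counted as well as reads. With no replicates, the crosses were compared by value only, and no statement reaches beyond the libraries themselves. Differences between the crosses cannot be told apart from differences between embryos, their sexes or their libraries. For a gene expressed from 1 parent's allele, the crosses also differ in the strain of that allele. Effects of that strain, or of how its reads align, cannot be told apart either. In whole tissue, fewer cells of a type and less RNA per cell cannot be told apart.

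In genomic imprinting, the parent that an allele came from sets whether it is expressed. Zdbf2, which encodes a protein with a DBF-type zinc finger, is known for expression from the paternal allele, in a domain with the receptor gene Gpr1. A longer transcript that starts far upstream of Zdbf2 is known from early embryos. Adam23 encodes a membrane protein of neurons. It belongs to the ADAM family of disintegrin and metalloprotease proteins but lacks protease activity, and binds the secreted LGI proteins and an integrin. Its splice forms are known to differ in the segment that spans the membrane. The deposited alignments list no bases, so the parental allele of a read was not analysed here.

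The start sites are shown because reads at them bear on which promoter was in use. RefSeq gives 2 starts for Zdbf2 and 1 for Adam23, each as 250 bases before and 50 after the start in build GRCm38. All of these sequences matched chromosome 1 of mm9 once, on the forward strand. Capitals mark CG, the dinucleotide at which promoters are methylated. The upstream Zdbf2 promoter lies at chr1:63246682-63246981, the promoter of the annotated Zdbf2 transcripts at chr1:63319593-63319892 and the Adam23 promoter at chr1:63492215-63492514.
Zdbf2 upstream: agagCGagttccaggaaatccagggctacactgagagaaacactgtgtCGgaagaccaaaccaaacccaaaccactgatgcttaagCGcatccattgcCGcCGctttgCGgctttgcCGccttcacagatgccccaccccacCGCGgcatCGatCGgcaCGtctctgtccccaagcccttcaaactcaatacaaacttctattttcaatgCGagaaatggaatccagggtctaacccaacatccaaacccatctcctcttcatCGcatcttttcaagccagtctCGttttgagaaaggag
Zdbf2: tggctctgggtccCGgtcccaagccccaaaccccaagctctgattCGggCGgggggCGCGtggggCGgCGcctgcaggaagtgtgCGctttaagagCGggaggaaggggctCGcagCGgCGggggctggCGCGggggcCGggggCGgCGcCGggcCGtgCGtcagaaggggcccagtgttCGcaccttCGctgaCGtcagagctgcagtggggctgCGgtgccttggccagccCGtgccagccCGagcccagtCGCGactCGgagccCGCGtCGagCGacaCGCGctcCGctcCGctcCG
Adam23: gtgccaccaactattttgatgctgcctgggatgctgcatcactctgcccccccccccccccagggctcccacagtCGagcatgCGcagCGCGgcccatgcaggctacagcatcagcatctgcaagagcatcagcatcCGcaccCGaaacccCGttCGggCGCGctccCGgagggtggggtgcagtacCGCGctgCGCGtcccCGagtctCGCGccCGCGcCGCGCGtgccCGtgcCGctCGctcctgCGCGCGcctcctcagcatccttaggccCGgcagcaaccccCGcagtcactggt
The upstream Zdbf2 promoter held 15 CG, the other Zdbf2 promoter 38 and the Adam23 promoter 31, against a median of 7 in the 32851 RefSeq promoters of this length. As many CG were held by 34.6%, 4.95% and 10.6% of those promoters, respectively. The motif TATAAA, searched on both strands, was in none of these windows and in 13.6% of all promoters.

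The upstream start of Zdbf2 was nearly without reads. Its promoter window held 1 BxC and 0 CxB unspliced reads. The kilobase after the start held 0 unspliced reads in each library, where a count of 0 allows up to 3. A transcript annotated over this start, Gm11607, held 3 BxC reads and 0 CxB reads on its exons. At the annotated start, 72.9 kb downstream, the kilobase after the start held 81 BxC and 63 CxB unspliced reads, placed by their middle base. The same kilobase of Adam23 held 494 BxC and 582 CxB unspliced reads. Spliced reads are not in these counts. Those that left exon 1 numbered 56 in BxC and 17 in CxB for Zdbf2, and 44 and 42 for Adam23. A microRNA annotated on the first exon of Zdbf2, AL669947.1, and a transcript annotated just upstream of it, Gm11608, share the place of the annotated Zdbf2 start. Of the Zdbf2 exon reads, 42.8% in BxC and 43.0% in CxB lay on the strand of the gene, so strand could not assign reads to 1 of these genes.

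**Figure D1:**
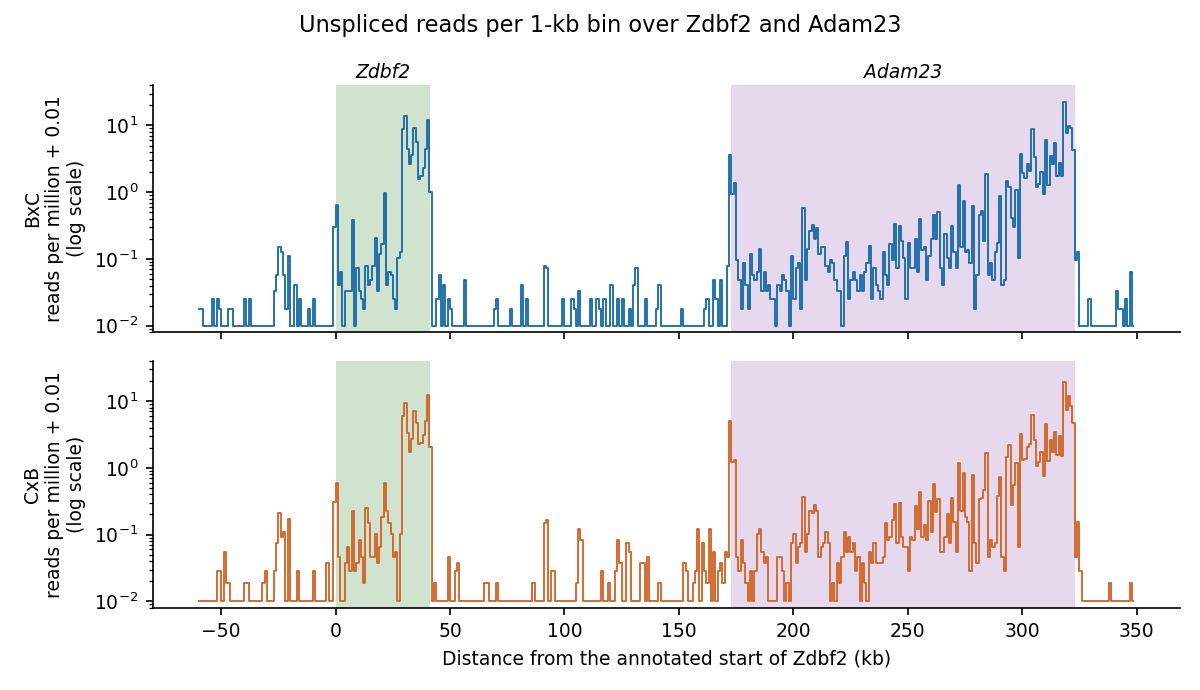
Unspliced reads per 1000000 reads of the library in 1-kb bins (log scale, 0.01 added) against distance from the annotated start of Zdbf2 in kb, for BxC (top) and CxB (bottom), with each gene's extent shaded. Reads rise over both genes and fall to near 0 in the gap between them, and within Adam23 they rise towards its 3′ end.

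Both genes were expressed at middling levels. Over its exons, Zdbf2 held 9556 BxC reads and 6922 CxB reads. In reads per kilobase of exon, scaled to a library of 1000000 reads (RPKM), its level was 5.85 in BxC (95% Poisson interval 5.74 to 5.97) and 4.98 in CxB (4.87 to 5.10). That placed Zdbf2 at rank 6619 in BxC and 7315 in CxB of 18954 protein-coding genes with reads. Adam23 held 7781 BxC reads and 6755 CxB reads, a level of 5.49 (5.37 to 5.62) in BxC and 5.60 (5.47 to 5.74) RPKM in CxB. Its rank was 6897 in BxC and 6834 in CxB. The annotated exons of Adam23 include the ends of shorter transcripts, which held few reads. Over the exons of the transcript Adam23-001 alone, its level was 9.08 in BxC and 9.29 in CxB, in RPKM.

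The level of Zdbf2 was lower in CxB than in BxC and the interval for Adam23 included no difference, and neither reached the distance of 0.5 used for a call. The log2 ratio of CxB over BxC, each scaled to its library, was -0.23 for Zdbf2 (95% interval -0.28 to -0.19), at percentile 8.12 of all genes with at least 100 reads in each library. It was 0.03 for Adam23 (-0.02 to 0.08), at percentile 59.1. Of those genes, 2.06% had a ratio beyond 0.5 in either direction, and 0 of the members did. All intervals cover counting error only.

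The neighbours showed no common shift. Within 500 kb of the members, 32 genes are annotated, the members included, and 10 of them held at least 100 reads in each library. None of the 10 had a ratio beyond 0.5, where 2.06% of all genes did, so that a count of 0 of 10 is not a result about them. The median of the 10, members included, was 0.01, beside -0.00108 over all genes. Zdbf2 had the lowest ratio of the 10. Next came Eef1b2, a translation elongation factor subunit, at -0.14 (-0.19 to -0.09), whose interval overlapped that of Zdbf2. Gpr1, a receptor gene and the next protein-coding gene upstream of Zdbf2, held 7 BxC reads and 20 CxB reads. Dytn, the gene that follows Adam23, held 0 BxC reads and 12 CxB reads.

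The markers of brain cells were high. The neuron markers found in the annotation, Tubb3, Stmn2 and Dcx, 3 of the 4 listed, summed to 1385 RPKM in BxC and 1270 in CxB. Tubb3 was lower in CxB, at 974 and 840 RPKM, and Stmn2, at 343 and 355, and Dcx, at 68.1 and 74.5, were higher. The radial glia markers Nes, Sox2, Fabp7 and Pax6, 4 of 4, summed to 237 and 247 RPKM. The 6 markers of tissues outside the brain summed to 0.367 RPKM in BxC and 1.06 in CxB, with the defining liver and kidney genes Alb and Umod at 0 reads in BxC and at 45 and 1 in CxB. The blood markers, 3 of 4 found, summed to 91.4 RPKM in BxC and 74.2 in CxB. Of these, Hba-a1 had a ratio of -0.28 and Alas2 one of -0.51, both lower in CxB as Zdbf2 was. Their part in the Zdbf2 result was not tested.

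The lower level of Zdbf2 in CxB was not even along the gene. The last exon, exon 7, spans chr1:63349214-63361150, is 11937 bases long, and held 96.1% of the BxC and 97% of the CxB exon reads. It holds 7306 of the 7482 coding bases, stop codon included, and the whole 3′ untranslated region. Over the coding part it held 6298 BxC reads and 3867 CxB reads, a log2 ratio of -0.47 (-0.53 to -0.41). Over the untranslated part of 4631 bases it held 2839 BxC reads and 2813 CxB reads, a ratio of 0.22 (0.14 to 0.30). The intervals of these parts did not overlap, and the ratios had opposite signs.

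The 1-kb windows of this exon showed the turn. In the opening window, 1492 BxC reads stood against 852 CxB reads, a ratio of -0.58 (-0.70 to -0.45). The 7th window, which ends 7000 bases into the exon, held 333 and 255 reads, with a ratio of -0.15 (-0.39 to 0.09). From there to the 3′ end the ratio was above 0 in all 5 windows. The 9th window was the highest, with 211 BxC reads and 271 CxB reads at 0.59 (0.33 to 0.86). The last window, of 937 bases, held 1381 and 1315 reads, at 0.16 (0.05 to 0.27). In distinct lines the signs were the same in all 12 windows, with ratios of -0.34 in the opening window and 0.27, from 134 and 138 lines, in the 9th. Over the 7 windows below 0 the line ratios ran from -0.62 to -0.19, 4 of them further from 0 than in reads, and over the other 5 from 0.03 to 0.27.

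**Figure D2:**
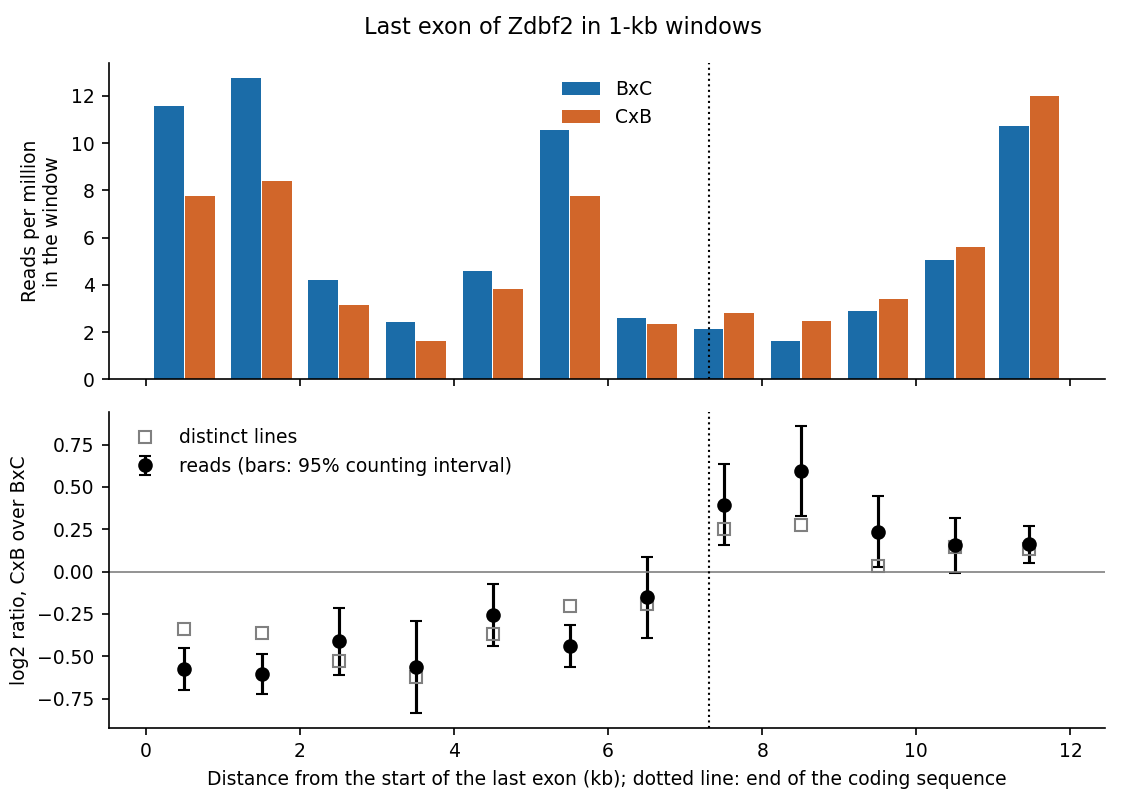
Reads per 1000000 reads of the library in each 1-kb window of the last exon of Zdbf2 (top, bars from 0) and the log2 ratio of CxB over BxC (bottom) against distance from the exon's start in kb. Points are reads with 95% counting intervals, squares are distinct lines, and the dotted line marks the end of the coding sequence; all 7 windows before it lie below 0 and the 5 after it, 1 of which holds the stop codon, lie above 0.

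Set against other long exons, this change along the exon was large. Cut into 3 sections of equal length, the exon held 4007, 2568 and 2626 BxC reads and 2302, 1832 and 2594 CxB reads, with ratios of -0.57, -0.25 and 0.22. The last section lay 0.78 above the opening one (95% interval 0.67 to 0.89 from the logarithms of the counts). Among 617 exons of at least 5 kb with at least 100 reads in each end section of each library, the median difference was 0.06 and the 95th percentile 0.57. A difference over 0.5 in either direction was found in 8.59% of them, and 6 exons had one larger in size than that of Zdbf2. This comparison was chosen after the windows were seen.

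The short upstream exons of Zdbf2 with enough reads had ratios below 0, with intervals that overlapped one another. Exon 3 held 66 BxC reads and 28 CxB reads, a ratio of -1.0 (-1.70 to -0.35). Exon 4 held 85 and 38 reads, at -0.93 (-1.52 to -0.36). Exon 6 held 160 and 65 reads, at -1.07 (-1.51 to -0.64). Each of these 3 exons lay more than 0.5 from the ratio of the gene, of 5 Zdbf2 exons with at least 20 reads in each library. Over the exons of all genes, 10.7% did so. Exon 1, with 143 BxC reads and 98 CxB reads, had a ratio of -0.31 (-0.70 to 0.07). Exon 2, with 3 reads in each library, and exon 5, with 34 and 13, held too few reads for a call. Of the 27 Adam23 exons with enough reads, 2 passed. With a minimum of 50 reads in each library, 1 of 3 Zdbf2 exons and 1 of 23 Adam23 exons passed, beside 5.87% of all exons. With distinct lines, 2 of 4 and 0 of 24 passed, beside 4.24%. Exon 3 held 18 BxC lines and 15 CxB lines, too few for that call, so that most of its difference in reads lay in identical reads. Exon 4 held 56 and 24 lines and exon 6 held 65 and 33.

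**Figure D3:**
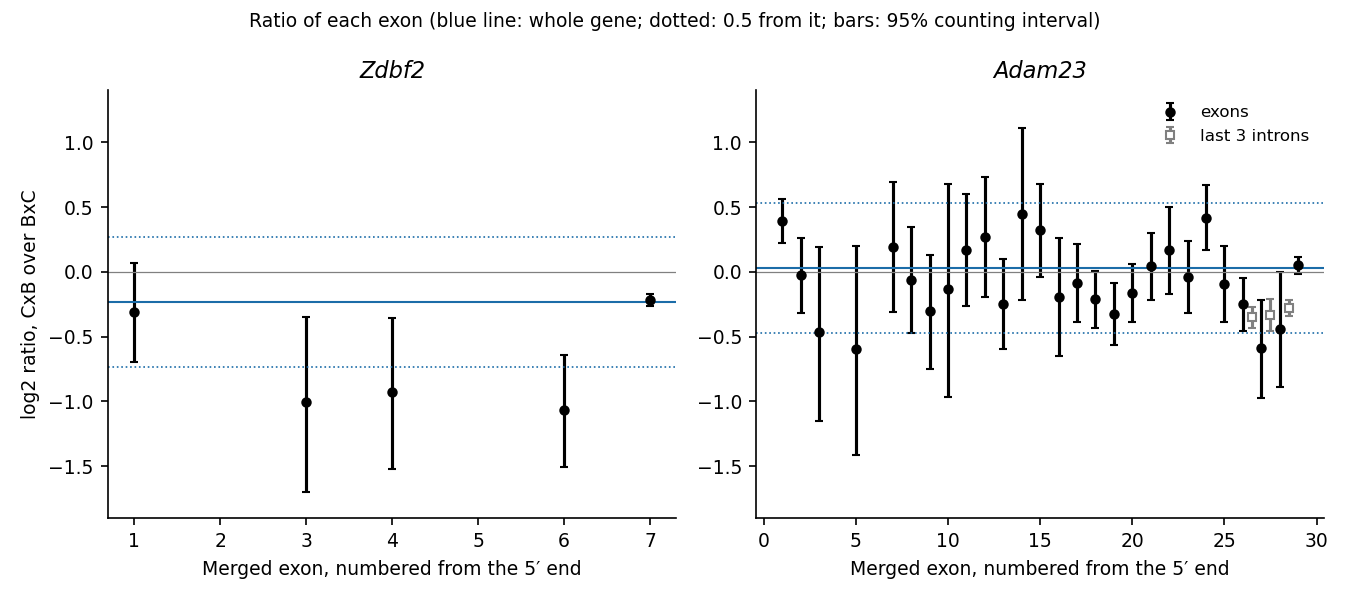
Log2 ratio of CxB over BxC for each exon with at least 20 reads in each library, in order from the 5′ end, with 95% counting intervals, for Zdbf2 (left) and Adam23 (right). Exons 3, 4 and 6 of Zdbf2 lie below the dotted lines at 0.5 from the gene's own ratio, and the last 3 introns of Adam23 (squares) lie below 0.

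Most spliced reads that left exon 1 of Zdbf2 passed over exon 2. Spliced reads from exon 1 joined exon 3 in 54 BxC reads and 17 CxB reads, and exon 2 in 2 and 0. Exon 3 thus took 96.4% of them in BxC (Clopper-Pearson interval 87.7% to 99.6%) and 100% in CxB (80.5% to 100%). The 54 BxC reads lay on 8 distinct lines. In distinct lines, exon 2 took 2 of 10 in BxC, or 20%, and 0 of 6 in CxB. Exon 2 joined exon 3 in 1 BxC read and 2 CxB reads. One annotated transcript starts inside the gene at exon 5. Its junction to exon 6 is also in the transcripts that start at exon 1, so its 2 BxC reads and 1 CxB read cannot be assigned to a start.

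Exon 5, which holds the annotated start codon at position 63337312, was often left out. Of 29 BxC reads spliced from exon 4, 16 joined exon 6, which is 55.2% (35.7% to 73.6%). In CxB it was 5 of 8, or 62.5% (24.5% to 91.5%). No transcript of the annotation has this junction. The reads that did join exon 5 used 3 places. The place of transcript Zdbf2-002 took 7 BxC reads and 1 CxB read, that of Zdbf2-001 took 0 and 1, and a place in no annotated transcript took 6 and 1.

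Zdbf2 had few intron reads and a sharp 3′ end. Of the forward-strand reads inside the gene, 69 of 4137 in BxC and 78 of 3028 in CxB touched no exon, or 1.67% (1.30% to 2.11%) and 2.58% (2.04% to 3.20%). The median over the 14598 genes with introns compared was 18.2% in both libraries. In distinct lines the Zdbf2 shares were 2.83% in BxC and 2.97% in CxB, closer together than in reads. None of its 6 introns reached 10% of the gene's exon level in both libraries, where 11.5% of all introns of at least 1 kb did. At that share, none of 6 is not a result about these introns. The last kilobase of the gene held 1452 BxC reads and 1375 CxB reads, and the kilobase beyond its end held 2 and 4.

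The gap between the genes was close to empty. It held 206 BxC reads and 270 CxB reads, or 1.57 per kb (1.36 to 1.80) and 2.06 per kb (1.82 to 2.32). Without the 5 kb next to each gene it was 0.767 per kb in BxC and 1.30 in CxB. In distinct lines the whole gap held 0.982 per kb in BxC and 1.04 in CxB. Of 130 whole 1-kb bins, 1 held at least 10 reads in each library, beside 3.21% of the 1-kb bins outside annotated genes in the genome. That bin overlaps the pseudogene Gm11605, which held 16 BxC reads and 28 CxB reads, and only 51.1% of its 36-base windows are unique in the genome. The other pseudogene of the gap, Gm11606, held 0 reads in each library. No spliced read in either library joined Zdbf2 to Adam23 or ended in the gap. The study's methods describe alignment to junction sequences made from exons within gene models. A junction outside such a model could not be found in that way, so these counts of 0 set no limit.

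Much of what the gap held lay next to Adam23. The 100 bases before its annotated start held 71 BxC and 68 CxB unspliced reads, and the stretch from 1 to 5 kb before it held 8 and 10. The first exon that the annotation places at 63492465 was therefore covered from slightly upstream in both libraries. Exon 1 itself held 540 BxC reads and 602 CxB reads, a ratio of 0.39 (0.22 to 0.56). Exon 1 gave 44 spliced reads in BxC and 42 in CxB. The first exon of Adam23-005, at chr1:63540743-63540862, and a 9-base first exon at chr1:63574527-63574535 held 0 reads in each library. Against exon 1, at 0 of 44 spliced reads, the share of either could be up to 8.04% in BxC, and at 0 of 42 up to 8.41% in CxB (Clopper-Pearson). In distinct lines, at 0 of 16 in each library, it could be up to 20.6%. These limits hold only if the junctions of these exons were among those that the study aligned to, which is not known.

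Read depth was uneven along the exons of Adam23. The mean depth per base over exons 1 to 15 of Adam23-001 was 31.8 in BxC and 29.3 in CxB. Over exons 16 to 19 it was 105 in BxC and 76.8 in CxB, the highest being exon 18 with 147 and 109. Over exons 20 to 24 it was 61.6 and 54.7, and over the last exon 38.4 and 34.0. These 4 groups had the same order in both libraries. In distinct lines the same groups had depths of 12.6, 20.1, 18.5 and 12.2 in BxC and 11.3, 16.4, 17.8 and 10.1 in CxB, so most of the peak at exons 16 to 19 lay in identical reads. The processed transcript Adam23-007, which is annotated to begin inside exon 16, ends in a stretch beyond exon 21 that held 3 BxC reads and 9 CxB reads.

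The last introns of Adam23 were heavily covered. The 3 introns between exon 24 and the last exon, 19105 bases in all without a U6 RNA gene inside them, held 9524 BxC reads and 6533 CxB reads, which are 87.8% and 85.4% of the gene's intron reads. Their level was 3.87 RPKM in BxC and 3.12 in CxB. The other 25 introns, 120429 bases, stood at 0.0856 and 0.0847 RPKM. The last intron, chr1:63632030-63639181, held 5183 BxC reads and 3629 CxB reads, or 102% and 82.5% of the level over the merged exons of the gene, above 99.6% of all 91368 introns of at least 1 kb in genes with enough reads. Against the exons of Adam23-001 alone, it stood at 61.9% and 49.8%. Within the last intron, the 1-kb window chr1:63637461-63638460 alone held 2679 BxC reads and 1885 CxB reads, on 221 and 183 distinct lines. In distinct lines, the mean depth of the last intron was 5.84 in BxC and 4.55 in CxB. Over the exons of Adam23-001 it was 13.2 and 11.4. Of the 22 Adam23 introns of that length, 3 passed 10% of the exon level in both libraries, beside 11.5% of all introns, and all 3 lay in this place.

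**Figure D4:**
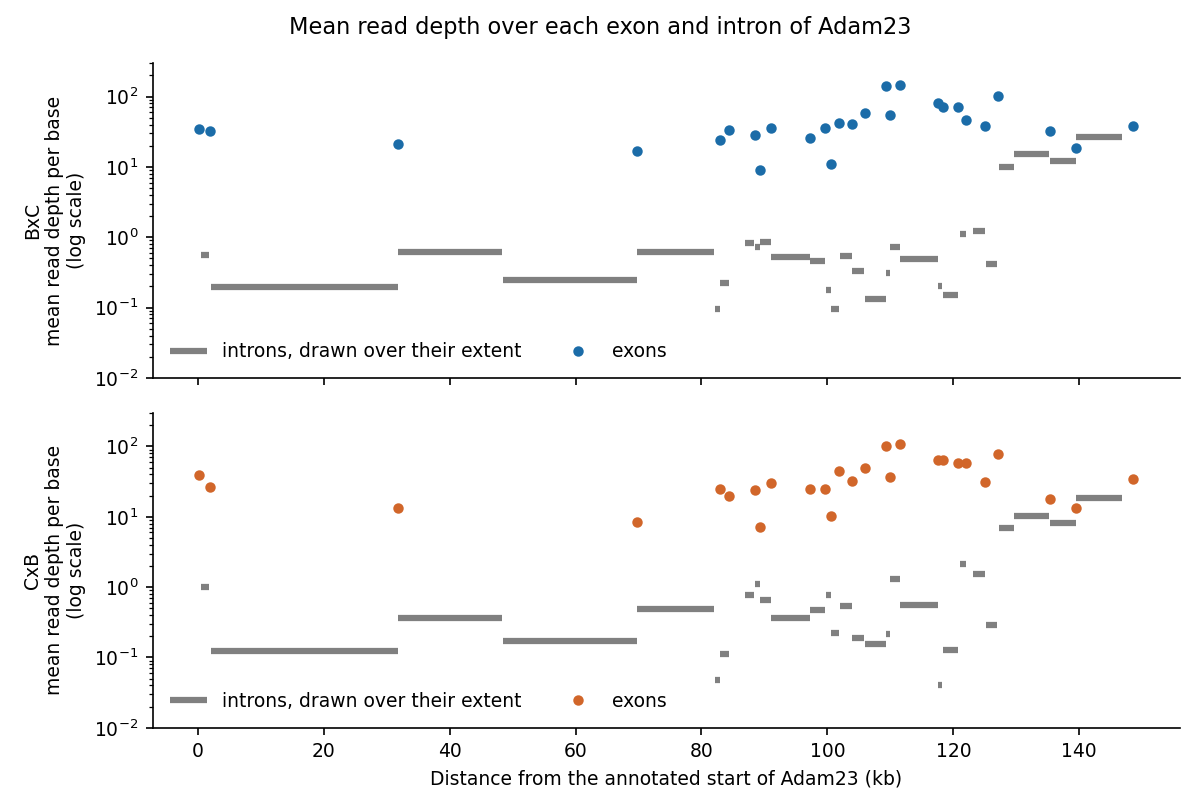
Mean read depth per base (log scale) over each exon (points) and intron (grey bars, drawn over their extent) of Adam23, against distance from its annotated start in kb, for BxC (top) and CxB (bottom). The last 3 introns lie near the lower exons and the others far below them, and exons 16 and 18 stand highest; the U6 gene in the third intron from the end is left out and breaks its bar.

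Intron reads made up most reads of Adam23. On the forward strand, 4559 of 8013 BxC reads inside the gene touched no exon, or 56.9% (55.8% to 58.0%), and 3237 of 6167 CxB reads, or 52.5% (51.2% to 53.7%). These shares stood at percentiles 92.6 and 90.3 of genes with introns. The last 3 introns were lower in CxB than in BxC, with a ratio of -0.31 (-0.36 to -0.27), while the other introns had a ratio of -0.02 (-0.13 to 0.10). Between exon 24 and the last exon, 9804 BxC reads and 6703 CxB reads lay on 2778 and 2057 distinct lines. In proportion, the lines differed less than the reads, so part of this difference lay in identical reads. Over the whole interval of Adam23, introns included, the ratio was -0.14 in place of 0.03. The 10 lines with the most reads held 16.9% of the BxC reads and 15.9% of the CxB reads between exon 24 and the last exon, and the line with the most held 331 and 210.

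Shorter annotated ends of Adam23 had little cover, except for 1 that opens into these introns. The end of Adam23-002, 219 bases that follow exon 24, held 96 BxC reads and 61 CxB reads. The end of Adam23-003, 1126 bases beyond exon 22, held 54 and 53, and that of Adam23-004, 2551 bases beyond exon 6, held 23 and 32. Per kb, these were 438, 48.0 and 9.02 reads in BxC. The last kilobase of the whole gene held 307 BxC reads and 287 CxB reads, and the kilobase beyond it 13 and 4.

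Between exon 24 and the last exon, the annotation offers exon 25a, of Adam23-006, exon 25b, of Adam23-001, or neither, as in Adam23-203. Exon 25a lies at chr1:63627711-63627801 and exon 25b at chr1:63631939-63632029. Each is coding and 91 bases long, 1 base more than whole codons, so that a transcript with neither goes on in another reading frame. The pair is printed because the spliced reads choose between them, with the exon in capitals and 10 bases of intron on each side in lower case.
Adam23 exon 25a: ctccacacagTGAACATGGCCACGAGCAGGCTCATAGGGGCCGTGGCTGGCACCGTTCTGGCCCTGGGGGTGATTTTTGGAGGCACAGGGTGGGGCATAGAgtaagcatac
Adam23 exon 25b: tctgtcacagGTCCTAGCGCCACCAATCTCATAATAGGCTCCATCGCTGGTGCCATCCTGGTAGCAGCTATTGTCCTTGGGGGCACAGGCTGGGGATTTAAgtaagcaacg
Without gaps, the exons were identical at 50 of 91 positions, or 54.9%.

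The spliced reads gave different shares at the ends of this choice. Of 28 BxC reads that left exon 24, 8 joined exon 25a, 13 joined exon 25b and 7 joined the last exon. In CxB the numbers were 3, 14 and 1 of 18. Exon 25b thus took 46.4% (27.5% to 66.1%) in BxC and 77.8% (52.4% to 93.6%) in CxB, and these intervals overlapped. The order of exons 25a and 25b in BxC depended on the reads counted, with 8 and 7 of 21 where 8 bases lay on each side and 6 and 6 of 16 in distinct lines. Of 101 BxC reads that entered the last exon, however, 90 came from exon 25a, 4 from exon 25b and 7 from exon 24. In CxB they were 51, 4 and 1 of 56. Exon 25a therefore held 89.1% (81.3% to 94.4%) in BxC and 91.1% (80.4% to 97%) in CxB on the side of the last exon, and 28.6% (13.2% to 48.7%) and 16.7% (3.58% to 41.4%) on the side of exon 24. The sides had intervals that did not overlap in either library. In distinct lines they overlapped in BxC, at 26 of 33 (61.1% to 91.0%) on the side of the last exon and 6 of 16 (15.2% to 64.6%) on the side of exon 24, and in CxB, at 19 of 24 (57.8% to 92.9%) and 3 of 12 (5.49% to 57.2%), they did not. The mean depth over exon 25a was 32.6 in BxC and 17.7 in CxB, and over exon 25b 18.5 and 13.3. The intron stretch just before exon 25a had 15.3 and 10.1, and the intron between the exons 12.1 and 8.17. The last intron, after exon 25b, had 26.3 and 18.4. These depths therefore cannot tell use of the exons from intron cover.

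**Figure D5:**
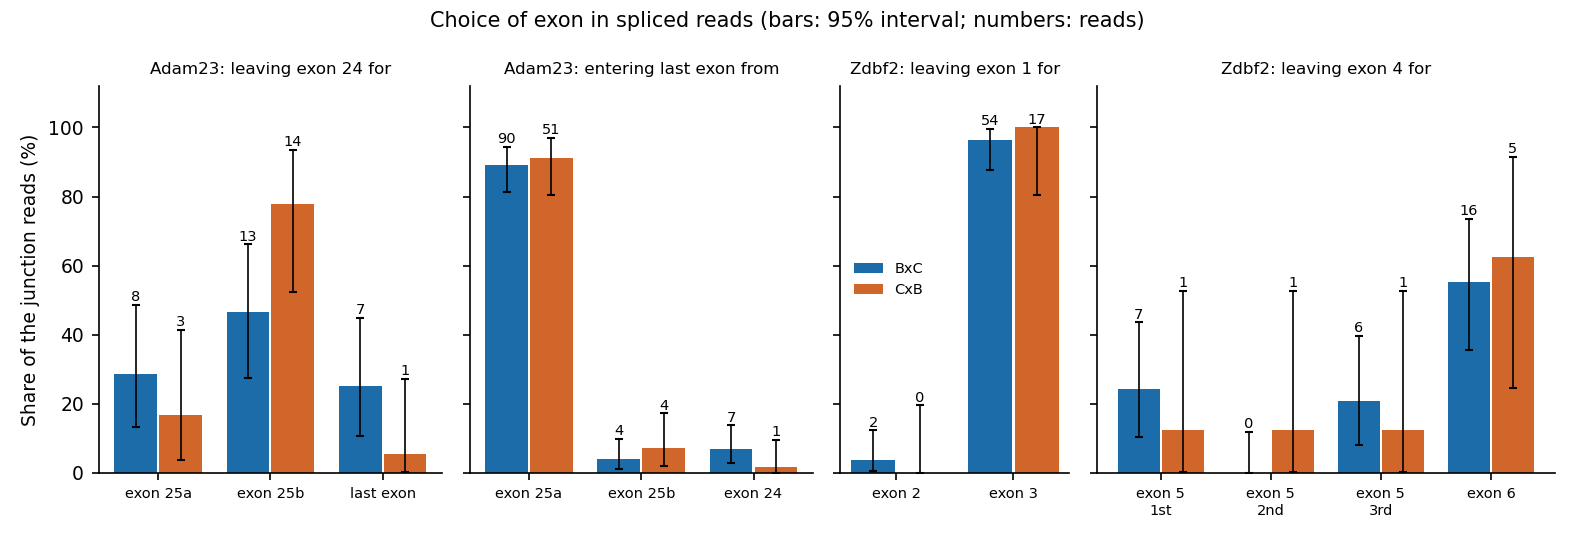
Share of the spliced reads (%) that took each exon, for choices in Adam23 and Zdbf2, with 95% Clopper-Pearson intervals and the number of reads above each bar. Exon 25a has most of the reads entering the last exon of Adam23 and, in the reads shown, fewer of those leaving exon 24 than exon 25b; "1st", "2nd" and "3rd" are the places used at exon 5 of Zdbf2 in order from the 5′ side.

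The other spliced reads of Adam23 lay on annotated junctions, with 1 exception. The study aligned to junctions of gene models, exon skips included, so this is largely what the alignment allowed. Of 30 annotated junctions, 28 had reads in each library, 1232 reads in BxC and 949 in CxB, or 15.8% and 14% of the exon reads. The most used was that from exon 16 to exon 17, with 279 BxC reads and 206 CxB reads on 20 and 14 lines. The exception, from exon 21 to exon 23, held 1 BxC read. In Zdbf2, 93 BxC reads and 32 CxB reads crossed annotated junctions, and 22 and 6 crossed unannotated ones.

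The SNP that the study assayed in Adam23 by pyrosequencing, at chr1:63635298, lies in the last intron, 3.88 kb before the last exon. The site is shown with the reference base at the SNP in capitals, followed by the primers, of which the reverse primer is given without its 24-base tail.
SNP site: cggggatgagCattttgcata
Forward primer: aggttaaggaaacggggatg
Reverse primer: tagcgaccctgtttttaatgc
Sequencing primer: aggaaacggggatga
The site was covered by 29 BxC reads (Poisson interval 19.4 to 41.6) and 30 CxB reads (20.2 to 42.8). These lay on 11 and 7 distinct lines. Over the 55 bases from primer to primer, chr1:63635276-63635330, there were 40 BxC reads and 42 CxB reads. The reads at the assayed site were thus reads of the heavily covered last intron and not of an annotated exon.

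Genes of the same family and known partners give the setting in which Adam23 was expressed. Of 12 ADAM genes listed, 10 held at least 100 reads in each library, with a median ratio of 0.06, and 0 lay beyond 0.5, where 2.06% of all genes did. At that share, counts of 0 in lists this short are not a result about the lists. Adam10, a protease of many surface proteins, was the highest at 22.2 RPKM in BxC and 24.4 in CxB. Adam22, the close relative that also binds LGI proteins and lacks protease activity, stood at 5.20 and 5.58 RPKM, beside Adam23 at 5.49 and 5.60 over its merged exons and 9.08 and 9.29 over those of Adam23-001. Adam11, another relative without protease activity, stood at 13 and 12.8 RPKM. Adam28, with 2 BxC reads and 7 CxB reads, was nearly absent.

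All 4 LGI genes held enough reads, with a median ratio of -0.09, and 0 lay beyond 0.5, beside 2.06% of all genes. Lgi2 was the highest at 6.28 RPKM in BxC and 6.33 in CxB, Lgi1 stood at 1.43 and 1.62, Lgi3 at 2.69 and 2.36 and Lgi4 at 0.580 and 0.457. Of the 7 partners, 7 held enough reads, with a median of -0.05, and 0 lay beyond 0.5, beside the same 2.06%. Itgav and Itgb3, the subunits of the integrin that Adam23 binds, stood at 1.34 and 0.547 in BxC and 1.28 and 0.476 in CxB. The prion protein gene Prnp stood at 52.3 and 50.6. The other gene with a DBF-type zinc finger, Dbf4, a regulator of DNA replication, stood at 0.528 in BxC and 0.619 in CxB, with a ratio of 0.23 (0.04 to 0.42).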

How the data were processed

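Whole-brain RNA was selected for polyadenylated molecules, and the study's methods describe a protocol that keeps strand. The authors aligned 36-base reads with Novoalign and deposited them in mm9 coordinates, with a whole-number count per line that was taken as the number of identical reads, a meaning inferred from the values. The counts are not normalized. Summed, they exceed in both libraries the average number of sequenced reads per library that the study gives, and the reason was not tested. BxC held 128944754 reads on 36575945 lines and CxB 109719746 on 31155725. Of the reads over exons of genes with at least 100 reads, 43.6% in BxC and 43.0% in CxB lay on the gene's strand, so both strands were counted, except for intron shares.

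The GENCODE vM1 annotation uses the same build. A read was counted over exons where any aligned block overlapped them. Counts beside the starts and ends of the genes, and those per 1-kb bin, are of unspliced reads placed by their middle base. Levels are reads per kb of merged exons in a library scaled to 1000000 reads (RPKM), and ratios are log2 of CxB over BxC. Intervals at 95% are exact (Poisson, Clopper-Pearson or conditional binomial), except for the difference along the last Zdbf2 exon. An exon was called at over 0.5 from its gene's ratio with at least 20 reads in each library. Adam23 exons are numbered after Adam23-001, and merged exons only where stated. Genes were named as members, as annotated neighbours within 500 kb, or from fixed lists of ADAM genes, LGI genes, partners and markers. The members and lists were chosen with earlier results of these data known. Map2 and Hbb-bt had no annotated gene of that name. All columns used could be assigned, with 0 left out. Calculations used Python 3.11.15, numpy 2.4.6, scipy 1.17.1 and pandas 2.3.3 and were tested on simulated data. The comparisons with other introns and long exons were added after the data were seen.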

Additional observations from a re-analysis of the deposited data

Results flagged for a closer look

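Reads were found in a stretch that no annotated gene covers, upstream of Zdbf2. The 3000 bases at chr1:63294001-63297000, 22.8 kb before the annotated start of Zdbf2, held 43 BxC reads and 49 CxB reads. It was chosen as the longest run of 1-kb bins with at least 5 reads in each library, so that its counts describe it and support nothing. They lay on 33 and 31 distinct lines, 29 and 33 of the reads on the forward strand. That was 41.7% of the BxC and 49.0% of the CxB reads between Gpr1 and Zdbf2. The log2 ratio was 0.42 (-0.20 to 1.05), an interval that includes 0. A further kilobase at chr1:63299001-63300000 held 13 and 18 reads. In all, 4 of the 57 whole 1-kb bins of that stretch held at least 10 reads in each library, beside 3.21% of bins outside annotated genes.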

How the results depend on the processing

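Of 63 alternative values, 33 stayed within the interval of the value reported and 30 moved beyond it. Neither ratio was called, so there was no called direction to reverse, but that of Adam23, 0.03, was -0.0081 on the gene strand and -0.14 over the whole interval. Counting distinct lines moved the ratio of Zdbf2 to -0.17, its level to 7.44 in BxC and 6.62 in CxB and its BxC intron share to 2.83%. It gave an Adam23 level of 6.33 and 6.39 in the same unit. It lowered, by construction, the gap to 0.982 and 1.04 lines per kb, and the depth at the SNP to 11 and 7. It moved the share of exon 1 among reads leaving exon 1 or exon 5 of Zdbf2 in BxC, which is not a share of starts, to 83.3%, the share of exon 25a at the last exon of Adam23 to 78.8% and 79.2%, and the difference between the end sections of the last Zdbf2 exon to 0.56. The gene strand alone gave levels of 2.50 and 2.14 for Zdbf2 and 2.44 and 2.43 for Adam23, by construction near 43% of the main values. Over the exons of transcript 001, the level of Adam23 was 9.08 and 9.29, and its last intron stood at 61.9% of it in BxC and 49.8% in CxB. Its BxC intron share was 58.2% with reads that reach into an intron and 58.3% on both strands. Without 5 kb at each side, the gap held 0.767 and 1.30 reads per kb. With 8 bases on each side, the same share of exon 1 of Zdbf2 in CxB was 100%. Exons of both genes apart from their gene's ratio fell from 5 to 2 with at least 50 reads and to 2 with distinct lines. The cause of each change was not tested unless stated. No paired analysis was possible because each cross has 1 library, and no replicate could be left out. Intervals and limits cover counting error only.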
